A study of Mus musculus with 10 samples.

Results

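Slits, netrins and their receptors are the extracellular guidance system measured here: the ligands Slit1, Slit2, Slit3 and Ntn1, and the receptors Robo1, Robo2, Unc5b, Unc5c, Dcc and Neo1. The 10 genes were taken by name, with every probe set whose annotation gives exactly that 1 gene symbol, which gave 24 of the 45037 probe sets that are not array controls. On the gene level they are 10 of 18193 genes, each read from whichever of its probe sets was brightest on average. RNA came from metanephric mesenchyme of E11.5 mouse kidneys, the tissue around the ureteric bud, after the bud had been removed with trypsin and pancreatin. There were 10 Affymetrix arrays: 5 of Wnt9b-/- mutant tissue and 5 of Wnt9b+/+ littermates by the sample labels, while the series text describes the controls as Wnt9b+/-. Each array had its own pool of 25 to 30 mesenchymes, embryos came from intercrosses of Wnt9b+/- mice, and the labels name no other allele or agent. Replicate numbers only name the arrays.

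Slits are large secreted proteins that signal through Robo receptors and repel or confine migrating cells and growing axons. Netrin-1 is a laminin-related secreted ligand whose receptors are Dcc and neogenin, encoded by Neo1, and the Unc5 family, which mediates repulsion. In the early kidney, loss of Slit2 or Robo2 lets the domain of Gdnf, the secreted signal for ureteric bud outgrowth, extend too far forward, and extra buds form. The comparison asks whether transcripts of this system differ in mesenchyme that developed without the bud's Wnt9b signal.

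Slit2 and Robo2 are the ligand and receptor tied to the Gdnf domain, so the sequence at their starts is shown. RefSeq windows of GRCm38.p6, 250 bases before to 50 after a gene's start, were used for 7 of the 10 genes, 9 windows in all. Any member window on a chromosome that was set aside is not among these, while the figures over all windows were made without that step. CG pairs are in capitals, and both are printed on the gene's strand. The Slit2 window is chr5:47982905-47983204 on the plus strand and the Robo2 window, the farthest upstream of 3 for this gene, is chr16:75447244-75447543 on the minus strand.
Slit2: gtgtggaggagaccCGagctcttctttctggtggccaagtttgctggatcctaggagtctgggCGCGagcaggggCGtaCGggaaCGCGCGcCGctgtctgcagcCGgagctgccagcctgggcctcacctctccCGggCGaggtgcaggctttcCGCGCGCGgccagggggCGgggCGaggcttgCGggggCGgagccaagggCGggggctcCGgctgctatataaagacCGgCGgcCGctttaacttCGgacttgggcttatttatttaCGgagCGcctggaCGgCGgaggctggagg
Robo2: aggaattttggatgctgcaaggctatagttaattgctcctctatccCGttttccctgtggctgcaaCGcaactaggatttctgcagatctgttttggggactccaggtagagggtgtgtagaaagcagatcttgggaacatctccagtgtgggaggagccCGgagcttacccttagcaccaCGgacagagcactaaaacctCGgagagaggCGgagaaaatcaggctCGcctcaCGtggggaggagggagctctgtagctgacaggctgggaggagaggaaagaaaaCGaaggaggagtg
The Slit2 window holds 30 CG pairs and is 68.0% G or C, and the Robo2 window holds 9 and is 53.3% G or C. The median over 32851 windows is 7 CG pairs and 52.7%. Slit2 also has TATAAA 28 bases before its start, where 1.99% of windows have that word between 40 and 20 bases before the start. The words CTTTGAA and CTTTGAT, forms of the site bound by the Tcf and Lef factors of Wnt signalling, were searched on both strands and were in none of the 9 windows, against 8.65% of all windows of this length. No match says only that these letters are absent from these windows.

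None of the 10 genes was called between mutant and wild type by limma at an adjusted p under 0.05, where 0.0055% of all genes were called, which is 1 gene. At an unadjusted p under 0.05 there was 1 member, Ntn1, and 5.49% of all genes passed. Differences are mutant minus wild type on the scale log2(signal + 1), called log2 below. The added 1 draws ratios of dim signals slightly toward 0, while dim probe sets have the widest intervals, so their differences are no lower bound. By these differences 5 members were higher in the mutant and 5 lower, with a median of +0.02 beside +0.02 over all genes. The median size of a difference was 0.19 for the members and 0.15 for all genes. Adjusted p ran from 0.743 to 0.999 over the 10 genes. Over probe sets, 11 of 24 were higher and 13 lower, 2 had an unadjusted p under 0.05 beside 4.51% of all probe sets, and the smallest adjusted p was 1.00. None of the 24 was called, where 0.00444% of all probe sets were.

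**Figure D1:**
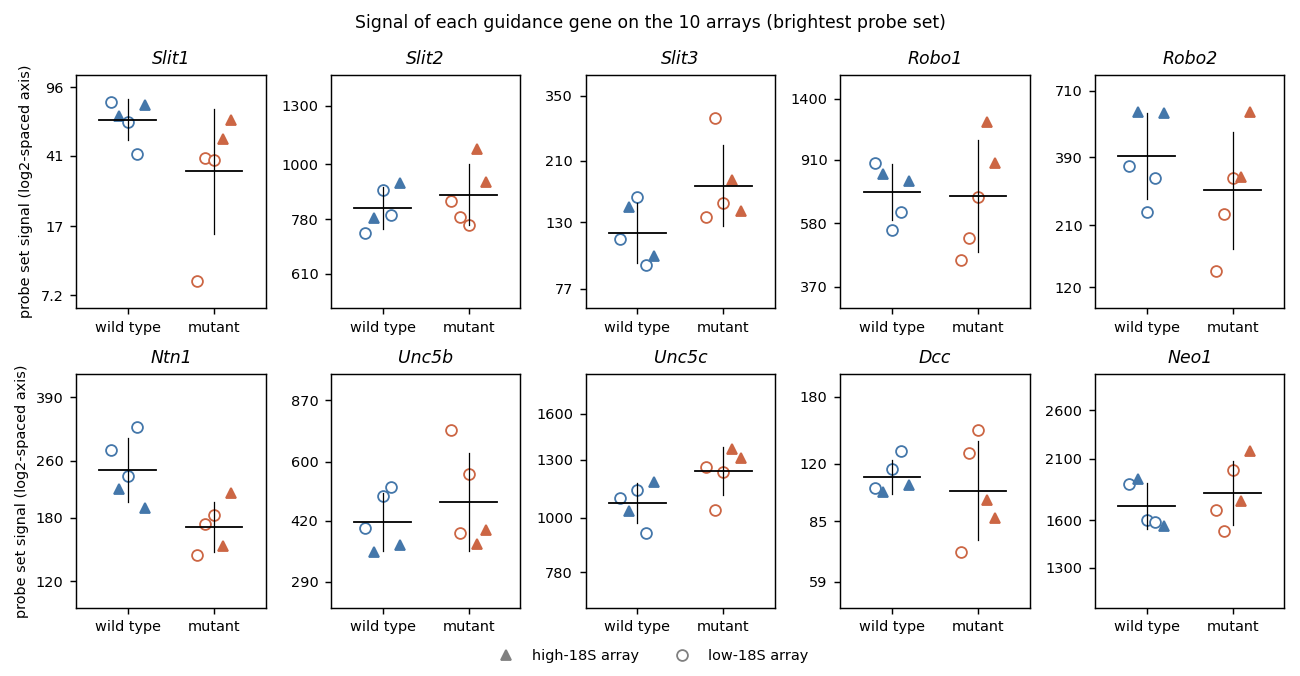
Signal of the brightest probe set of each guidance gene on each array, on a log2-spaced axis that differs between panels. Blue is wild type and red is mutant, filled triangles are the 4 arrays with high 18S signal and open circles the other 6, and bars give the mean ± SD of log2 signal (n = 5). All 10 genes overlap between the groups, with Ntn1 the nearest to separation, and 3 of the 4 triangles are the highest Robo2 values.

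The table holds no detection calls, so signals were set against a reference for little or no transcript, the 95th percentile over 44 probe sets of olfactory receptor genes on the same array. That reference lay between 61.4 and 91.9 in signal. Of the 24 member probe sets, 14 were above it on all 10 arrays, 5 on some arrays and 5 on none. The brightest probe set was above it on all arrays for 8 genes. Slit1 was above it on 2 arrays, both wild type, and Dcc on 9.

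The Slit ligands showed no called difference, and their intervals differ widely in width. Slit2 had signals of 732, 784, 890, 796 and 917 in wild-type replicates 1 to 5 and 847, 787, 760, 1070 and 923 in mutant replicates 1 to 5. The groups overlapped, and mutant replicate 4 was highest. Mean log2 signal was 9.68 ± 0.14 (SD, n = 5) for wild type and 9.77 ± 0.20 for the mutant, a difference of +0.08 (SE 0.13, 95% interval -0.20 to +0.37, limma adjusted p = 0.999), and +0.01 without mutant replicate 4. The interval thus spans from a small fall to a small rise of Slit2, and its within-group SD of 0.17 was above that of 25.3% of the brighter genes, those with a mean above the median of all genes. A second Slit2 probe set, 1458140_at, gave -0.09 (SE 0.21), and the last one, 1451430_at, above the olfactory reference on 1 array, gave +0.06 (SE 0.50). The ureteric bud also makes Slit2, and 7 of 10 measured bud markers were above the olfactory reference on all arrays despite the dissection. They were lower in the mutant in 6 of 10, none with an unadjusted p under 0.05, and summed to 1927 to 3550 in signal in wild type and 1514 to 4253 in the mutant. Their part in the Slit2 value was not tested.

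Slit3, the family member known for its part in closing the diaphragm, had a single probe set. Its signals were 114, 147, 158, 92.9 and 99.8 in wild type and 135, 295, 151, 181 and 142 in the mutant, in replicate order. Mutant replicate 2 was far above the rest, mutant replicate 4 was also above all wild-type arrays, and the other 3 mutant arrays lay inside the wild-type range. The difference was +0.53 (SE 0.24, 95% interval -0.01 to +1.07), 1.44-fold higher in the mutant and not called (limma adjusted p = 0.908). Without mutant replicate 2 it was +0.34. That array also had the brightest hybridisation controls, and the part of this in the Slit3 value was not tested. Within the high-18S arrays Slit3 differed by +0.40 and within the others by +0.61.

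Slit1, best known from the developing nervous system, was dim. Its brighter probe set read 80.3, 67.2, 62.2, 41.9 and 76.6 in wild type and 8.63, 39.6, 38.7, 50.4 and 64.0 in the mutant. Most of these values are under the olfactory reference, so whether Slit1 is transcribed here was not shown. The difference was -0.90 (SE 0.46, 95% interval -1.93 to +0.14, limma adjusted p = 0.941), and -0.43 without mutant replicate 1. The other Slit1 probe set was above the reference on no array and gave -0.61 (SE 0.51).

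Robo2, the Slit receptor of the nephrogenic mesenchyme, varied widely within each genotype. Its single probe set read 360, 586, 237, 323 and 580 in wild type and 139, 232, 323, 326 and 588 in the mutant. The highest array was a mutant one and the lowest too, so the mutant range enclosed the wild-type range. Mean log2 signal was 8.62 ± 0.56 (SD, n = 5) for wild type and 8.18 ± 0.76 for the mutant, a difference of -0.44 (SE 0.39, 95% interval -1.31 to +0.42, limma adjusted p = 0.988). Leaving out mutant replicate 1 brought it to -0.18 and leaving out mutant replicate 5 to -0.70. The within-group SD of 0.67 was above that of 99.3% of the brighter genes.

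Robo1, the other Slit receptor among the members, had signals of 889, 821, 552, 629 and 781 in wild type and 446, 522, 698, 1188 and 891 in the mutant. Both the highest and the lowest array were mutant, as for Robo2. The difference was -0.04 (SE 0.27, 95% interval -0.64 to +0.56, limma adjusted p = 0.999). Its sign depended on the arrays, at -0.31 within the low-18S arrays and +0.36 within the high-18S arrays. The 2 dimmer Robo1 probe sets disagreed, at -0.51 (SE 0.28) and +0.74 (SE 0.47), and lay above the olfactory reference on 1 array and on none. The within-group SD of 0.45 was above that of 96.2% of the brighter genes.

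The arrays fall into sets by an array control, and the Robo genes were compared between them. The control probe set for the 5' end of 18S RNA read 1975 to 2587 on 4 arrays, wild-type replicates 2 and 5 and mutant replicates 4 and 5, and 92.4 to 322 on the other 6, with as many mutant as wild-type arrays in each set. Robo2 read 326 to 588 on the high-18S arrays and 139 to 360 on the low-18S arrays. In a fit with genotype and set it was 0.97 higher on the high-18S arrays (SE 0.26, 1.96-fold, limma adjusted p = 0.220). Robo1 was 0.58 higher there (SE 0.21, adjusted p = 0.289), and Unc5b 0.45 lower, written as a difference of -0.45 (SE 0.17, adjusted p = 0.302). These 3 of 10 members had an unadjusted p under 0.05, where 14.1% of all genes did, so the members' share is read against a high background, and none was called, where 0.0055% of all genes were. The comparison of sets was added after values were seen. Since each set holds as many mutant as wild-type arrays, adding the set cannot move a genotype difference, and for Robo2 it changed the SE, from 0.39 to 0.26 (limma adjusted p = 0.837).

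**Figure D2:**
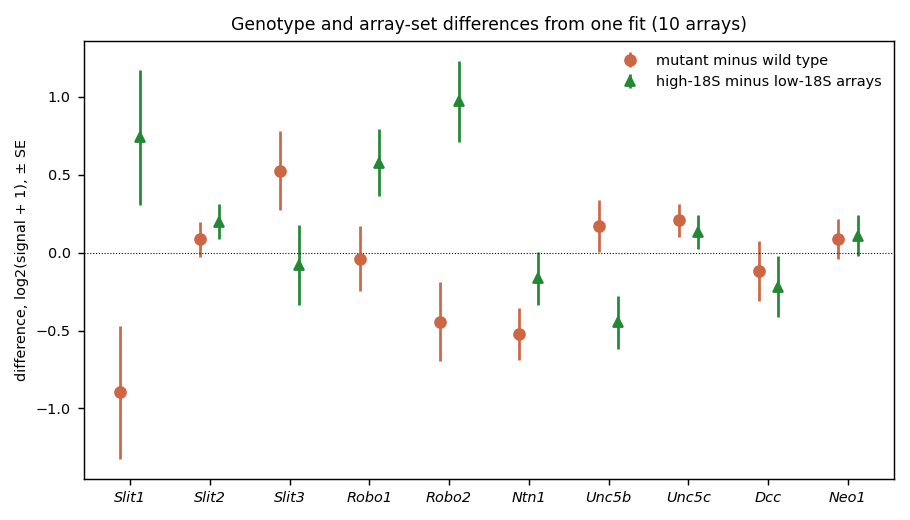
Mutant minus wild type (red circles) and high-18S minus low-18S arrays (green triangles) for each guidance gene, in log2(signal + 1) from a single limma fit with both terms on 10 arrays, with bars of 1 SE. Robo2 differs more between the array sets, at 0.97, than between genotypes, at -0.44, while Ntn1 has -0.52 between genotypes and -0.16 between sets.

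Marker genes were read on the same arrays, and of the nephron progenitor and stroma markers 7 of 8 and 7 of 7 were above the olfactory reference on all of them. Nephron progenitor markers were lower in the mutant in 8 of 8, and 7 of 8 had an unadjusted p under 0.05, where 2.08% of all genes were lower at that p. None of the 8 was called (smallest limma adjusted p = 0.283), and their summed signal was 5988 to 6869 in wild type and 2800 to 5083 in the mutant. Stroma markers summed to 11210 to 13737 and 10814 to 15872, with 5 of 7 higher in the mutant. Of the 7, 2 were higher at an unadjusted limma p under 0.05, where 3.41% of all genes were, and none was lower at that p. None of the 7 was called (smallest limma adjusted p = 0.691). By array set, stroma markers summed to 13437 to 15872 on the high-18S arrays and 10814 to 13959 on the others, and progenitor markers to 3737 to 6869 and 2800 to 6856. Bud markers summed to 1514 to 3154 and 1927 to 4253 in the same order. Higher on the high-18S arrays were 7 of 7 stroma, 6 of 8 progenitor and 2 of 10 bud markers. The same held for 3 of 9 endothelial and 2 of 5 neural markers, and for 8066 of all 18193 genes. Wnt9b itself, a gene of the removed bud, was at 6.47 ± 0.14 (SD, n = 5) and 6.23 ± 0.54 (limma adjusted p = 0.996), which checks nothing about the labels, since where its probe sets lie in the allele is not given. No marker on these lists was at 0. In pooled tissue fewer cells of a type and less RNA per cell cannot be told apart, and the part of either in the member values was not tested.

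Ntn1, the netrin ligand, was the member nearest to a difference. Its signals were 277, 216, 236, 323 and 192 in wild type and 142, 173, 183, 150 and 211 in the mutant. Mutant replicate 5 alone reached into the wild-type range, where it exceeded wild-type replicate 5 and no other array. Mean log2 signal was 7.94 ± 0.30 (SD, n = 5) for wild type and 7.42 ± 0.23 for the mutant, a difference of -0.52 (SE 0.17, 95% interval -0.90 to -0.14), 1.44-fold lower. With an unadjusted limma p of 0.0119 and an adjusted p of 0.743 it was not called. The difference was -0.74 within the low-18S arrays and -0.19 within the high-18S arrays, 3 against 3 and 2 against 2. A dim second probe set, above the olfactory reference on no array, gave -0.27 (SE 0.69).

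The Unc5 receptors, which turn netrin into a repellent signal, did not differ detectably. Unc5c had signals of 1091, 1028, 1135, 931 and 1177 in wild type and 1259, 1033, 1230, 1366 and 1309 in the mutant. The 4 highest arrays were mutant, and mutant replicate 2 lay among the wild-type arrays. The difference was +0.21 (SE 0.12, 95% interval -0.05 to +0.47, limma adjusted p = 0.943), with +0.08 (SE 0.18) at its second probe set. The within-group SD of 0.14 was above that of 13.9% of the brighter genes.

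Unc5b, also known as a receptor of growing blood vessels, had signals of 402, 347, 489, 513 and 362 in wild type and 727, 391, 558, 365 and 398 in the mutant. Mutant replicate 1 was highest, and the other mutant arrays overlapped with wild type or lay just above it. The difference was +0.17 (SE 0.21, 95% interval -0.31 to +0.65, limma adjusted p = 0.999), and +0.01 without mutant replicate 1. The second Unc5b probe set, 1453269_at, also above the reference on all arrays, gave -0.19 (SE 0.18). The 4 high-18S arrays, at 347 to 398, sat at the low end of Unc5b, against 391 to 727 on the others. Endothelial markers, whose part here was not tested, were higher in the mutant in 9 of 9, none with an unadjusted p under 0.05, and summed to 2989 to 3861 in wild type and 3014 to 3946 in the mutant.

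Dcc and Neo1 are related receptors that bind netrin, and Neo1 also binds the RGM proteins. Dcc was dim, at 104, 101, 116, 130 and 106 in wild type and 70.5, 129, 147, 96.3 and 86.5 in the mutant, with mutant replicate 1 under the olfactory reference. The mutant arrays spread to both sides of the wild-type arrays. The difference was -0.12 (SE 0.20, 95% interval -0.56 to +0.32, limma adjusted p = 0.999) and +0.01 without mutant replicate 1, and the other 2 probe sets were above the reference on no array.

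Neo1 was read by 5 probe sets, 4 of them above the reference on all arrays and all 4 of those higher in the mutant. The brightest had signals of 1877, 1922, 1600, 1587 and 1558 in wild type and 1673, 1525, 1994, 1745 and 2174 in the mutant. It overlapped between the groups and differed by +0.09 (SE 0.13, 95% interval -0.20 to +0.38, limma adjusted p = 0.999), and by +0.02 without mutant replicate 5. Probe set 1440789_at read 176, 157, 202, 186 and 178 in wild type and 209, 232, 230, 269 and 208 in the mutant. It was the single member probe set whose groups did not overlap, where 0.888% of all probe sets did not. Its difference was +0.35 (SE 0.13, 95% interval +0.06 to +0.64), with an unadjusted limma p of 0.0233 and an adjusted p of 1.00. Probe set 1434931_at gave +0.25 (SE 0.13) and 1447694_x_at gave +0.06 (SE 0.22). The dim last one, 1444295_at, above the reference on 3 arrays, was lower in the mutant, at -0.25 (SE 0.69). The Neo1 probe sets share their RNA and arrays and are not replicates.

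**Figure D3:**
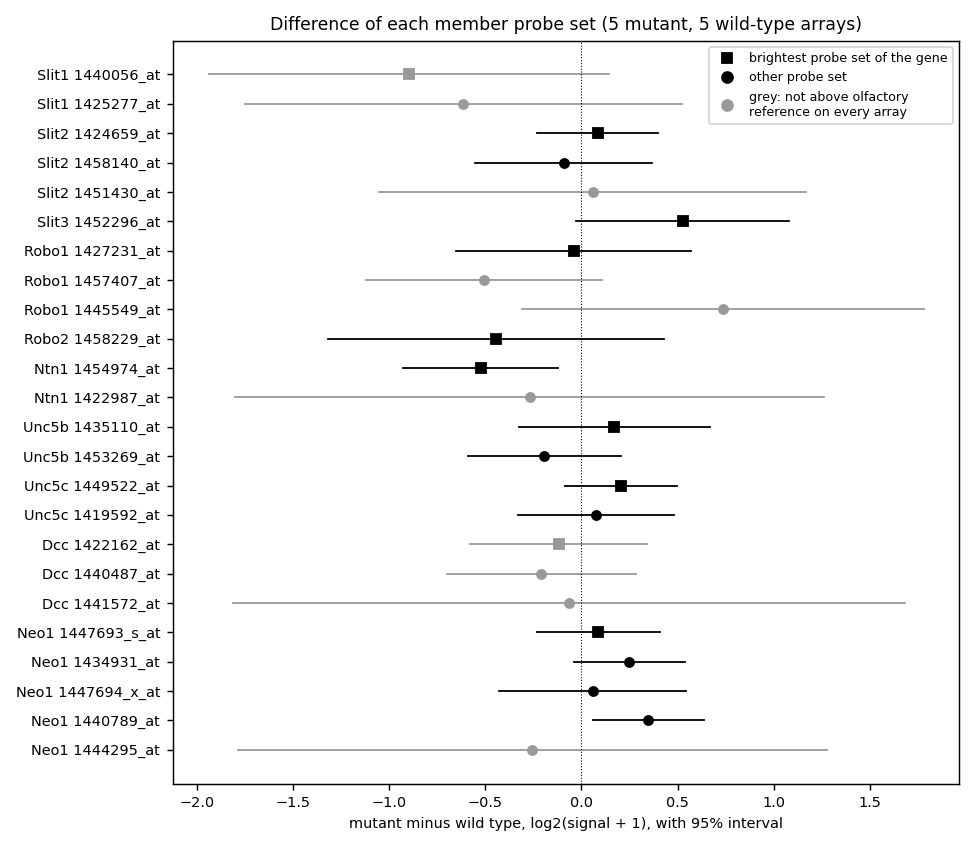
Mutant minus wild type of all 24 member probe sets in log2(signal + 1), with 95% intervals from the limma fit over probe sets (5 mutant and 5 wild-type arrays). Squares are the brightest probe set of a gene, and grey marks probe sets not above the olfactory reference on every array. The intervals of 1454974_at of Ntn1 and 1440789_at of Neo1 leave out 0, and those of dim probe sets are the widest.

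Other ligands and receptors of the system were taken from a list of 17 genes, all measured. Of these 15 were higher and 2 lower in the mutant, with a median of +0.33 beside +0.02 for all genes, 54.9% of which were higher. With the mean of each gene's probe sets the median was +0.12, and over the alternatives 12 to 15 of the 17 were higher (7 of 8 without the dimmest 40% of genes). None was called, and 2 had an unadjusted p under 0.05, both higher, where 3.41% of all genes were higher at that p. Those were Flrt3, a membrane protein that binds Unc5 receptors, at +0.54 (SE 0.22, adjusted p = 0.880), and Ntng1, a membrane-anchored relative of the netrins, at +0.36 (SE 0.15, adjusted p = 0.887). Flrt3 read 532 to 944 with a median of 623 in wild type and 813 to 1442 with a median of 948 in the mutant. Flrt1 was at +0.39 (SE 0.18) and Unc5d, above the olfactory reference on no array, at +0.73 (SE 0.34). The list's summed signal was 2759 to 3004 in wild type and 3261 to 3931 in the mutant. This sum is weighted to the brightest genes of the list, which are Flrt3 and Flrt2, the latter at +0.04 (SE 0.19). How often sums over other genes separate the groups was not counted. Ntn3, Ntn5 and Ntng2 were also above the reference on no array, and 7 of the 17 were above it on all arrays, so many of these differences are between dim signals. Markers of neurons and neural crest, which also use guidance genes, summed to 463 to 670 in wild type and 590 to 920 in the mutant over the 5 of 8 that were measured. Of those, 3 were higher and 2 lower in the mutant and none was called, with 2 higher at an unadjusted p under 0.05. Stmn2 was at +0.67 (SE 0.19), Foxd3, above the reference on no array, at +0.99 (SE 0.32) and Tubb3 at +0.25 (SE 0.23), while Elavl4 was at -0.16 (SE 0.22) and Sox10 at -0.01 (SE 0.47). The part of these markers in the list's values was not tested.

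Proteins that carry Slit and netrin signals inside the cell or at its surface made a second list of 20, of which 18 were measured. None was called or had an unadjusted p under 0.05, 13 were higher and 5 lower, and the median was +0.04. The members with the smallest p were Fyn, a Src-family kinase, at +0.14 (SE 0.09), Maged1 at +0.20 (SE 0.19), the kinase Dapk1 at +0.13 (SE 0.15) and Trio, an exchange factor for small GTPases, at -0.21 (SE 0.24). The srGAP proteins that act downstream of Robo were near 0, with Srgap1 at +0.07 (SE 0.16), Srgap2 at +0.01 (SE 0.14) and Srgap3 at +0.11 (SE 0.21).

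Genes that set or read the Gdnf domain formed another list, 14 of 16 measured. None was called, 5 were lower and 1 higher at an unadjusted p under 0.05, where 2.08% and 3.41% of all genes were, and the median was -0.32. Gdnf read 260 to 407 in wild type and 110 to 222 in the mutant without overlap, a difference of -1.12 (SE 0.23, adjusted p = 0.403). Gfra1, the coreceptor for Gdnf, read 340 to 489 and 257 to 351 and differed by -0.41 (SE 0.13, adjusted p = 0.719). Foxc1 and Foxc2, transcription factors that also restrict the Gdnf domain, were at +0.19 (SE 0.16) and +0.30 (SE 0.24). The other genes lower at an unadjusted limma p under 0.05 were Eya1 at -0.73 (SE 0.20), Etv5 at -0.75 (SE 0.23) and Spry1 at -0.49 (SE 0.18). The 1 higher at that p was Bmp4, at +0.38 (SE 0.13). Beside the Gdnf difference, Slit2 was at +0.08 and Robo2 at -0.44, and the 95% interval of each includes 0.

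**Figure D4:**
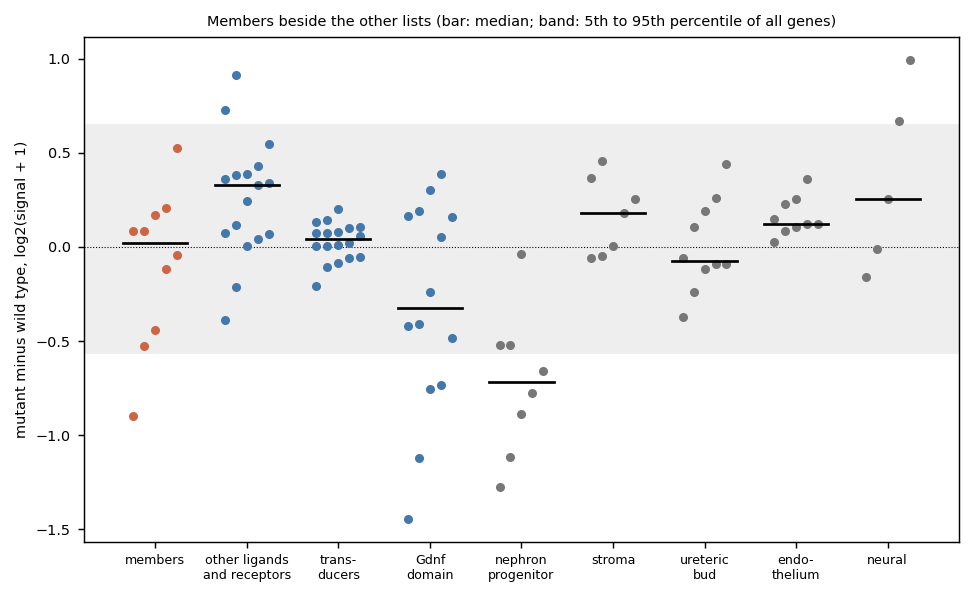
Mutant minus wild type in log2(signal + 1) for each member (red), the genes of the 3 other lists of the pathway and the Gdnf domain (blue) and the marker lists (grey), by brightest probe set over 10 arrays. Bars are medians and the band holds the 5th to 95th percentile of all genes, -0.56 to +0.65. The members lie on both sides of 0, with Slit1 at -0.90 as the only one outside the band.

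Likeness over the 10 arrays was measured by Pearson correlation of log2 signal among 9095 brighter genes, and is given as a description, since the highest of so many values was taken and the arrays share the 18S sets. The 3 genes most like Slit2 were Zfp932 (r = 0.968, Spearman 0.964), Hspa13 (r = 0.949, Spearman 0.770) and Pwwp3b (r = 0.940, Spearman 0.867). For Robo2 they were Isg20l2 (r = 0.948, Spearman 0.939), Pold1 (r = 0.923, Spearman 0.976) and Eri2 (r = 0.918, Spearman 0.806). For Ntn1 they were Sde2 (r = 0.921, Spearman 0.879), Gfra1 (r = 0.913, Spearman 0.927) and Rnf216 (r = 0.888, Spearman 0.879). Within the 6 low-18S arrays alone, r was 0.932, 0.768 and 0.853 for Slit2 with these genes in the order given, 0.968, 0.890 and 0.756 for Robo2, and 0.971, 0.964 and 0.886 for Ntn1. Gfra1 is also on the Gdnf domain list, and both it and Ntn1 had lower means in the mutant.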

How the data were processed

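The authors deposited linear probe-set intensities, 1 table of 45101 probe sets by 10 arrays, made per the labels' protocols from biotin-labelled cRNA of pooled mesenchymes. How probes were summarised into intensities, and with which software, was not given in the sources used. The mean after trimming 2% at each end was 250.0 on each array, so arrays had been scaled before deposit and were not normalized further. The 64 control probe sets were left out, 34945 probe sets had 1 gene symbol, and 18193 genes resulted. Values were used as log2(signal + 1). Mutant and wild type were compared with lmFit and eBayes of limma 3.58.1 in R 4.3.3, on genes and on probe sets, two-sided, with Benjamini-Hochberg adjustment over all of them and a call at an adjusted p under 0.05. The values for the brightest probe sets in the text come from the fit on genes, and those of 1440789_at and other probe sets from the fit on probe sets. The fit was tested on simulated data in which genes varied independently and the changed genes were drawn from the brighter ones. It called 80 of 100 genes changed by 1 log2 and 100 of 100 changed by 2, with 19 false calls.

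The members, the lists and the alternatives were chosen with earlier results of these data known. The rule for named genes took all members, up to 4 genes of each other list by smallest p, and the 3 genes most like Slit2, Robo2 and Ntn1. Srgap1, Srgap2, Srgap3, Foxc1 and Foxc2 were added after values were seen, for their roles. So were Bmp4 and Spry1, to name all genes counted at an unadjusted p, and Flrt2, as a bright gene in a summed signal. List genes that were not measured are not reported here. The number of arrays limits the precision. No genome coordinates of probe sets are given because the array table names no build.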

Additional observations from a re-analysis of the deposited data

Results flagged for a closer look

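For the 24 member probe sets, the gap between an extreme array and its nearest neighbour was compared with the range of its genotype, which made 48 groups of 5 values. Such gaps arise by chance in about 1 group in 20, so 2.4 would be found in 48. There were 3, each at the low end of the mutant arrays and at a dim probe set. Slit1 probe set 1440056_at was at log2 3.27 in mutant replicate 1, while the remaining mutant arrays had 5.31 to 6.02. Dcc probe set 1440487_at was at 4.10 in mutant replicate 3, against 5.12 to 5.25. Neo1 probe set 1444295_at was at 2.68 in mutant replicate 2, against 5.54 to 6.44.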

How the results depend on the processing

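No member gene and no gene of the other 3 pathway lists was called (0 calls) in any of the 22 alternative settings, nor any member probe set in the 21 that apply to probe sets. Of all genes, 0 to 10 were called in these settings, so 0 calls among the members were likely beforehand and say little about them. Calls over all probe sets were not counted there. At an unadjusted limma p under 0.05 there were 0 to 4 member genes (1 in the text) and 1 to 5 member probe sets (2 in the text). The share of all genes or probe sets at that p was not counted in the alternative settings, so these counts have no background. The other ligands and receptors kept a median above 0 in all 22, from +0.12 to +0.34. The smallest adjusted p of a member in any setting was 0.375, for Ntn1 without the dimmest 40% of genes. The moderation with an intensity trend, the filter on dim genes and the 18S block cannot move a member's difference, nor can the mean of probe sets where a gene has 1. Slit3, Robo2 and Ntn1 kept their sign in the 18 settings that changed their value, and Unc5c, Neo1 and Slit1 in 19. Slit1, among the dimmest 40%, was not measured under that filter. Slit2 was at -0.011 within the low-18S arrays alone. Robo1 was at +0.062 with the mean of its probe sets and +0.36 within the high-18S arrays alone, and ran from -0.23 to +0.12 on leaving out each array in turn. Unc5b was at -0.011 with the mean of its probe sets, and Dcc ran from -0.25 to +0.013 on leaving out each array. The cause of these turns was not tested. With a pseudocount of 16 the dim Slit1 was at -0.61. Arrays whose titles share wording formed 3 pairs, each of a wild-type and a mutant array. Their correlations of deviations were 0.098, 0.099 and 0.14, beside a median of -0.0030 over all wild-type and mutant pairs, and the fitted block correlation was 0.37. Both arrays of each pair were in the same 18S set, so pairing and set cannot be told apart here. These values did not settle that the arrays are paired. With these pairs as a replicate block 0 members were called, where 1 of all 18193 genes was, and 4 members had an unadjusted limma p under 0.05. The share of all genes at that p was not counted with the block, so the 4 cannot be set against the share in the main fit. The median difference of all genes stayed between -0.0094 and 0.048 in all settings.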
